A study of Mus musculus with 27 samples.

Results

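The mitochondrial genome of the mouse carries 37 genes, and all 37 were found in the deposited count table of 48440 genes by their symbols, which begin with mt-. They comprise 13 mRNA genes, 2 rRNA genes and 22 tRNA genes. Over the 27 libraries the mRNA genes received 21515379 read counts, the rRNA genes 747094 and the tRNA genes 46845. The mRNA and rRNA genes had counts in every library. Among the tRNA genes 3 (mt-Td, mt-Tr and mt-Tt) had a count of 0 in all libraries, and 16 stayed under 10 counts in every library.

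RNA was sequenced from cultured primary fibroblasts of the lungs of C57BL/6 wild-type mice, with 3 libraries in each of 9 groups. KU60019, which inhibits ATM, a kinase of the DNA damage response, was given at 3 uM for 15 or 35 d, each set against DMSO, the vehicle, for the same time. In further groups KU60019 was given for 15 or 35 d and then removed for 20 d, each set against cells from which DMSO was removed in the same way. Cells of the ninth group, irradiated with 10 Gy and taken 10 d later, served as the positive control of senescence. It is set here against DMSO for 15 d, so this comparison and that of KU60019 for 15 d share their control libraries. The labels name no control for the irradiated cells, and values against DMSO for 35 d are given as well. The library names run through the groups as S1_705, S2_715, S3_716 and so on to S27_716, with 1 library of each ending per group, and the labels do not say whether the endings mark animals or cultures. Values per library are given in the order of these endings. The p-values therefore measure the spread between these libraries, which may be technical.

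Mitochondrial DNA is transcribed from both strands into long precursors. Excision of the tRNAs that lie between the other genes releases the mRNAs and rRNAs, and most mRNAs then receive short poly(A) tails. The 13 mRNAs encode subunits of respiratory complexes I, III, IV and V. mt-Nd6 is the single mRNA read from the light strand promoter, and the other 12 come from the heavy strand. All other proteins of the organelle, including its RNA polymerase and ribosomal proteins, are encoded in the nucleus.

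Total counts per library lay between 20659745 and 50859493, with a median of 31265114. In every library a mitochondrial mRNA share of all counts carried a 95% Wilson interval no wider than 0.0184 percentage points, which covers counting error only. Fibroblast markers were abundant throughout, with the summed level of the 10 markers between 9993 and 49630 CPM (counts scaled to a common library total), and 0 of the 10 markers were absent. Sums of marker levels use the library total alone, while CPM values of mitochondrial genes per library also use TMM factors. Marker sums and mitochondrial CPM values are therefore not on the same scale. Loci listed as nuclear rRNA or rRNA-like took 0.0194 to 0.171% of counts in 24 libraries. The list also holds the small nuclear RNA gene Rn7sk. In the other 3 libraries, DMSO removed after 35 d (S19_705), irradiation (S27_716) and DMSO removed after 15 d (S7_705), these loci took 1.11%, 0.713% and 0.393%. Some results that rest on these 3 libraries are also given without them. Counts of nuclear lists, stratified tests over the removal pairs and the fit of irradiation against DMSO for 35 d are given only with them.

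Part of the mitochondrial signal was counted at nuclear copies. A stretch of chromosome 1 annotated as 7 pseudogenes matches mt-Co1 (in part), mt-Co2, mt-Atp6, mt-Co3, mt-Nd3, mt-Nd4l and mt-Nd4 (in part). The sequences below show why short reads cannot separate these copies: only 1 base differs in the 483 shared bases of mt-Co1 and 1 in the 345 shared bases of mt-Nd3, and the other matches had no difference. The base that differs is in capitals (A1066T in mt-Co1 and T3C in mt-Nd3, mitochondrial base first, counted from the first base of the mitochondrial gene). Positions are on GRCm38.
mt-Co1, chrM:6390-6423, plus strand: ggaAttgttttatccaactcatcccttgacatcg
Gm29216, chr1:24616155-24616188, minus strand: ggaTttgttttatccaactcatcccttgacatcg
mt-Nd3, chrM:9459-9491, plus strand: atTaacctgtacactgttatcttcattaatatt
Gm28438, chr1:24613087-24613119, minus strand: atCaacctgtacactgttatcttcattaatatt

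The 7 copies together held 10442964 counts, which is 32.7% of the sum of mitochondrial mRNA and copy counts. For genes matched over nearly their full length, the copy took a near constant part in all 27 libraries. Gm28661 held 49.9 to 51.1% of the counts of mt-Co2 plus copy, Gm28437 50.1 to 50.8% of those of mt-Co3 plus copy, and Gm10925 51.2 to 52.3% of those of mt-Atp6 plus copy. The values of these 3 mRNAs were thus lowered by about the same factor in every library. The partial copies behaved otherwise. Gm29216, which matches the last 483 of the 1545 bases of mt-Co1, held 24.1 to 53.8% (median 38.5%), and Gm28439, which matches the first 876 of the 1378 bases of mt-Nd4, held 10.0 to 31.5% (median 15.0%).

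**Figure D1:**
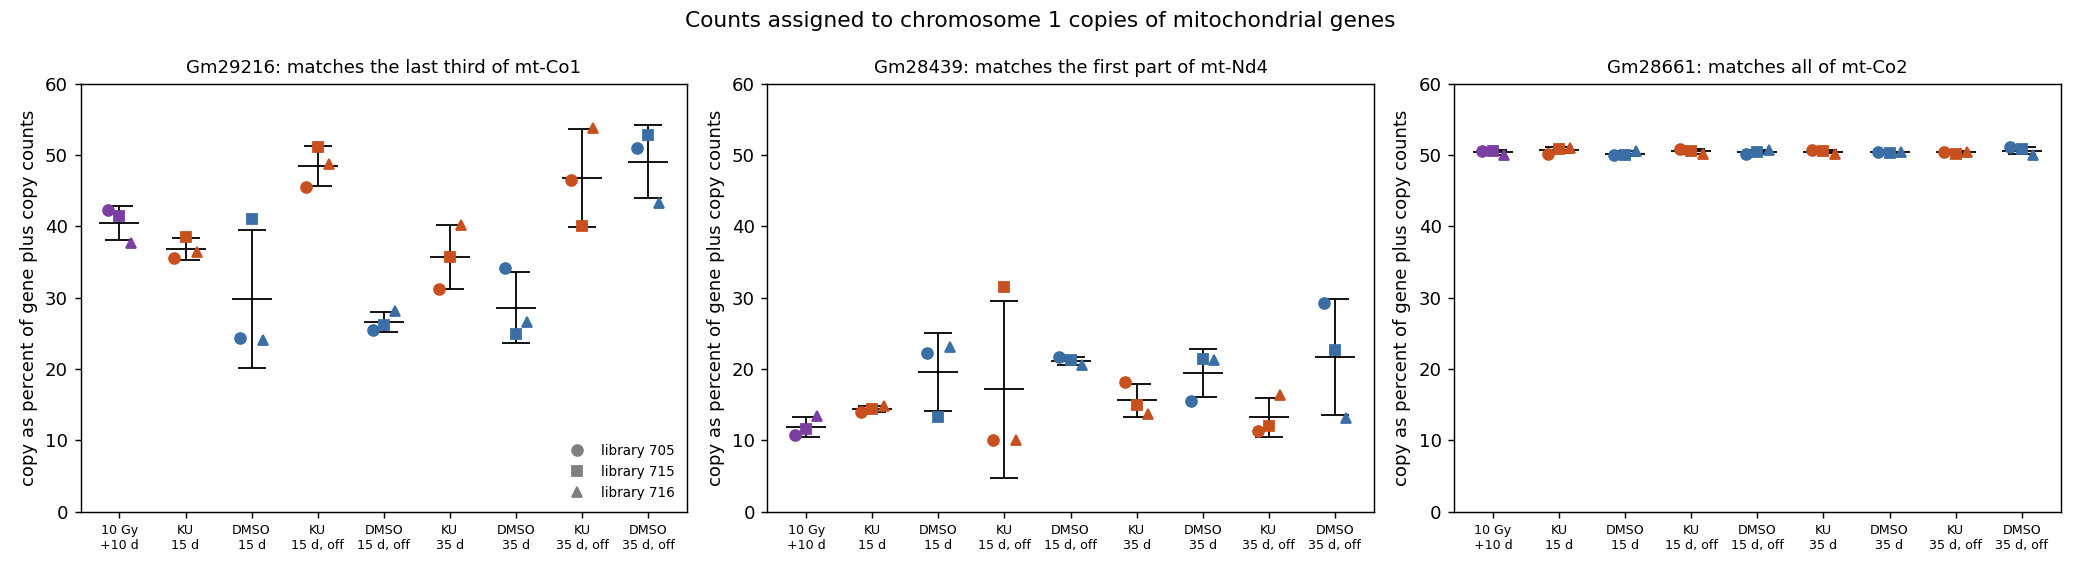
Counts assigned to 3 chromosome 1 copies, as a percent of the counts of the mitochondrial gene plus its copy, in each of the 27 libraries (points, shaped by name ending, orange for KU60019, blue for DMSO and violet for irradiation), with the group mean and SD in black. The full-length copy of mt-Co2 stays between 49.9 and 51.1% everywhere, while the copy of the end of mt-Co1 runs from 24.1 to 53.8%.

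The percentage on Gm29216 differed most between the groups compared after 15 d of treatment and its removal, and overlapped at 35 d. It was 31.3, 35.7 and 40.2% in the 3 libraries with KU60019 for 35 d, against 34.2, 24.9 and 26.6% in those with DMSO for 35 d, where the lowest KU60019 library fell below the highest DMSO library. After 15 d it was 35.6, 38.5 and 36.4% with KU60019, against 24.4, 41.1 and 24.1% with DMSO, where S2_715 stood apart. The same DMSO library also differed in how RNA level followed gene length: the rank correlation over 10940 genes was -0.16 in it, against 0.43 and 0.47 in the other two libraries of its group. With KU60019 for 15 d this correlation was -0.13 to -0.04, with KU60019 for 35 d -0.21 to 0.12 and with DMSO for 35 d 0.08 to 0.44. A fit that removed each library's length trend is given beside the comparisons of KU60019 with DMSO.

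The share of counts from mitochondrial mRNA genes was higher with KU60019 than with DMSO after both exposures, and the ratio was larger after 35 d. After 35 d the 13 mRNAs took 5.36, 6.45 and 4.97% of all counts with KU60019, against 1.56, 1.69 and 1.61% with DMSO. The group means were 5.59 ± 0.770 and 1.62 ± 0.0667% (SD, n = 3 each), a 3.43-fold ratio of geometric means. After 15 d the shares were 2.50, 2.59 and 2.77% with KU60019, against 1.75, 1.68 and 1.88% with DMSO, a 1.48-fold ratio. No library of one treatment reached the other at either time. With 3 against 3 libraries the exact two-sided permutation test gave p = 0.10 for each, the smallest it can give (0.138 after adjustment over the 11 group pairs). Permuting labels within each duration over both pairs gave a 2.25-fold mean ratio (exact p = 0.005, the smallest its 400 arrangements allow, 0.030 adjusted over the 24 such tests). With the chromosome 1 copies added, the share averaged 8.40 ± 1.13% with KU60019 and 2.33 ± 0.0554% with DMSO at 35 d.

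**Figure D2:**
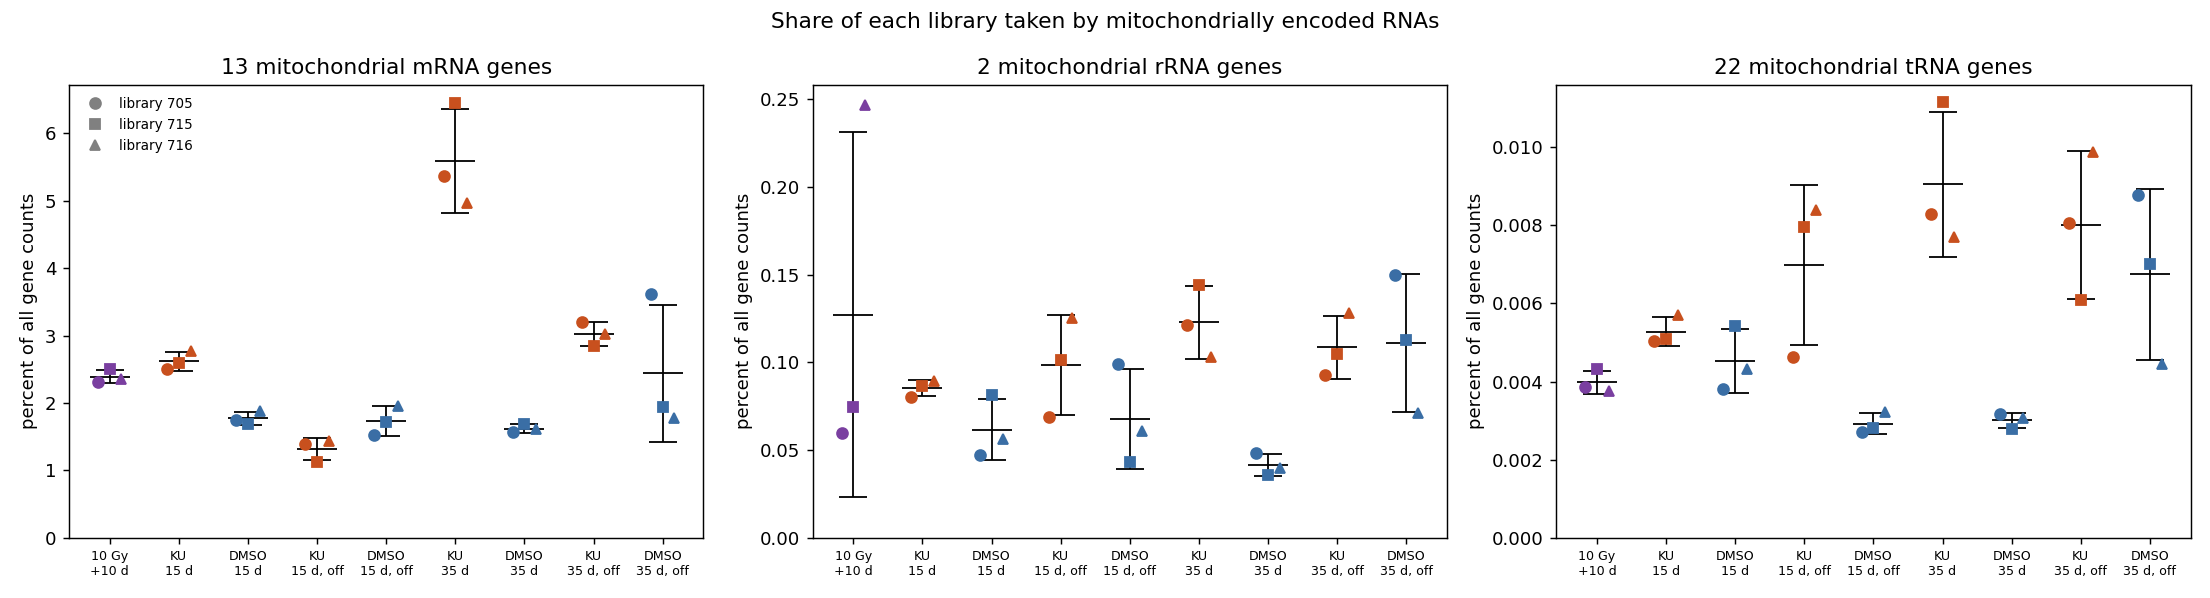
Percent of all gene counts taken by the mitochondrial mRNA, rRNA and tRNA genes in each of the 27 libraries (points, shaped by name ending, orange for KU60019, blue for DMSO and violet for irradiation), with the group mean and SD in black; "off" marks removal for 20 d. The 3 libraries with KU60019 for 35 d hold 4.97 to 6.45% mitochondrial mRNA, above all others, and 1 irradiated library holds 0.247% mitochondrial rRNA.

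The smaller classes moved in the same direction under KU60019, with overlapping libraries after 15 d. At 15 d rRNA took 0.0801, 0.0867 and 0.0894% with KU60019, against 0.0472, 0.0812 and 0.0565% with DMSO. The tRNA genes took 0.00504, 0.00509 and 0.00570% at 15 d, against 0.00381, 0.00543 and 0.00432%. Mitochondrial rRNA took 0.123 ± 0.0206% with KU60019 for 35 d and 0.0414 ± 0.00626% with DMSO (SD, n = 3 each), and over both durations the ratio was 2.05-fold (stratified exact permutation test, p = 0.01, adjusted 0.040). For tRNA genes the shares were 0.00905 ± 0.00186% and 0.0030 ± 0.000198% at 35 d, and the ratio over both durations was 1.87-fold (p = 0.015 by the same exact test, adjusted 0.045). In bulk RNA, more mitochondrial RNA per cell and less RNA of other kinds cannot be told apart from a share. At 35 d, 4 mitochondrial genes were among the 10 with the highest deposited TPM (the authors' level per gene length, scaled to a common total) in each KU60019 library, against 1 in each DMSO library.

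Per length, mt-Co1, the catalytic core of complex IV, had the highest median level of the 37 genes, 8546 TPM (872 to 28122 over 27 libraries). It was followed by mt-Co2 with 4752 and mt-Co3 with 4173 TPM, both also of complex IV, and mt-Nd6 of complex I with 3545 TPM. The ranges over libraries of these neighbours overlapped. mt-Atp6 of complex V (2884 TPM), mt-Cytb of complex III (2606 TPM) and mt-Nd1 of complex I (2515 TPM) came next. The lowest mRNAs were mt-Atp8 (206 TPM) and mt-Nd4l (124 TPM), each of which overlaps the start of its neighbour. The 2 rRNAs had medians of 553 TPM (mt-Rnr1) and 511 TPM (mt-Rnr2). These positions depend on the copies, which take counts from 7 of the 13 mRNAs, and on the library kit, of which the labels name TruSeq RNA without saying how rRNA was removed.

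The overlaps bear on both short genes, because reads that touch 2 genes may be left out or assigned to either. The last 43 bases of mt-Atp8, in capitals, are also the first bases of mt-Atp6, and the last 7 bases of mt-Nd4l are the first of mt-Nd4.
mt-Atp8, chrM:7907-7969, plus strand: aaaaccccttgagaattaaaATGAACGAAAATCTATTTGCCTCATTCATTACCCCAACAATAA
mt-Nd4l, chrM:10147-10173, plus strand: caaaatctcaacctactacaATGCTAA
mt-Nd5 and mt-Nd6 overlap by 14 bases on opposite strands, and whether strand was used in counting is not stated by the labels or file headers. Without it, counts at mt-Nd6 could hold RNA of the opposite strand over the whole gene, not only in those 14 bases, which was not tested. Separate values of these gene pairs, and of the genes with copies, are uncertain for these reasons. The same limit holds for ratios that use mt-Nd6.

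In the test of single genes 21 members passed the filter on low counts: the 13 mRNAs, both rRNAs and 6 tRNAs. After 35 d of KU60019, 11 of the 13 mRNAs rose against DMSO at an adjusted p under 0.05 (edgeR's quasi-likelihood test with Benjamini-Hochberg adjustment over all 18684 genes tested). Of all genes 9.7% were called higher in this comparison, and 18.1% in either direction. The median log2 fold change of the 13 mRNAs was 1.65, against -0.01 over all genes tested. The same 11 genes were called with each library's length trend removed, with the copies added, on TPM and with DESeq2.

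Complex IV mRNAs were among the clearest. mt-Co2 (ENSMUSG00000064354, chrM:7013-7696), which carries electrons from cytochrome c into the enzyme, had 4438, 5702 and 4765 CPM with KU60019 for 35 d, against 1765, 1490 and 1386 CPM with DMSO. Every KU60019 library was over 2 times the highest DMSO library, and the log2 fold change was 1.68 ± 0.18 (SE, edgeR adjusted p = 1.28e-06). mt-Co1 (ENSMUSG00000064351, chrM:5328-6872) had 25763, 27386 and 19944 CPM with KU60019, against 5646, 6880 and 6121 CPM with DMSO. It too showed no overlap, with 1.97 ± 0.26 (adjusted p = 1.67e-05), and 2.12 ± 0.21 when the counts of Gm29216 were added. The third subunit gene mt-Co3 rose by 1.65 ± 0.22 on the log2 scale.

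mt-Atp6 (ENSMUSG00000064357, chrM:7927-8607), a subunit of the proton channel of ATP synthase, had 3292, 3854 and 2989 CPM with KU60019 for 35 d, against 1005, 887 and 906 CPM with DMSO. Its log2 fold change was 1.86 ± 0.22 (edgeR adjusted p = 4.54e-06). mt-Cytb, the mitochondrial subunit of complex III, rose by 1.5 ± 0.20. mt-Atp8, the other mitochondrial ATP synthase gene, had 77.4, 63.1 and 41.9 CPM, against 20.4, 38.8 and 32.9 CPM in DMSO. Its groups did not overlap either, and the test was not passed (0.99 ± 0.59, adjusted p = 0.260).

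The 7 complex I mRNAs spread more widely in this comparison. mt-Nd6 (ENSMUSG00000064368, chrM:13552-14070, minus strand) had 1828, 3456 and 3069 CPM with KU60019 for 35 d, against 495, 402 and 485 CPM with DMSO. The groups were far apart, at 2.60 ± 0.43 (edgeR adjusted p = 2.25e-04), the highest of the 13 log2 fold changes. mt-Nd5 rose by 2.32 ± 0.53, mt-Nd4 by 1.76 ± 0.43, mt-Nd3 by 1.44 ± 0.23, mt-Nd2 by 1.23 ± 0.28 and mt-Nd1 by 0.94 ± 0.20. mt-Nd4l had 46.4, 34.2 and 37.8 CPM with KU60019, against 11.2, 25.7 and 25.2 CPM with DMSO, without passing (0.93 ± 0.64, adjusted p = 0.336).

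**Figure D3:**
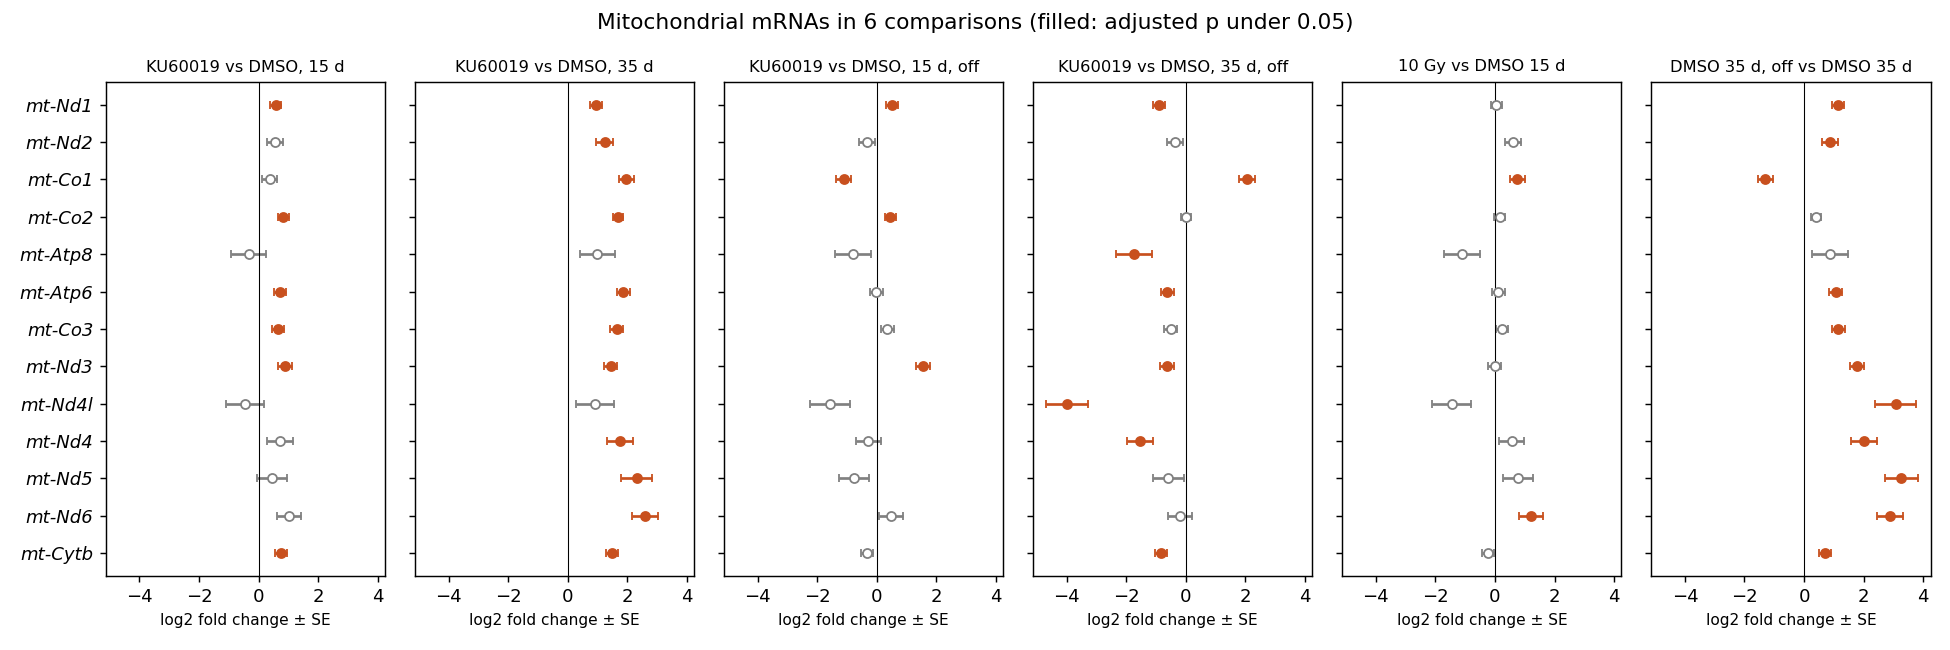
Log2 fold change ± SE of the 13 mitochondrial mRNAs in 6 comparisons, in gene order along the genome from top to bottom; filled orange points passed an adjusted p under 0.05 and open grey points did not. All 13 points lie right of 0 after 35 d of KU60019, and mt-Co1 goes against most other mRNAs in the 2 comparisons that involve DMSO removed after 35 d.

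After 15 d of KU60019, 6 of the 13 mRNAs rose, where 13.2% of all genes were called higher and 30.3% in either direction. The median log2 fold change was 0.65, against -0.02 over all genes. mt-Nd3 (0.88 ± 0.23), mt-Co2 (0.83 ± 0.18), mt-Cytb (0.75 ± 0.20), mt-Atp6 (0.72 ± 0.21), mt-Co3 (0.65 ± 0.21) and mt-Nd1 (0.57 ± 0.20) passed edgeR's test. mt-Co2 had 2999, 2897 and 2984 CPM with KU60019 against 1441, 1974 and 1576 CPM with DMSO, and mt-Atp6 1629, 1679 and 1758 CPM against 944, 1091 and 1045 CPM. mt-Co1 had 7671, 6719 and 7543 CPM against 6476, 4269 and 6227 CPM, without passing (0.37 ± 0.25, adjusted p = 0.276), and passed once the copy was added (0.53 ± 0.20, adjusted p = 0.0490). With the length trend removed 3 of the 6 kept their call, mt-Co2, mt-Nd3 and mt-Cytb, and without S1_705 of DMSO 3 mRNAs were called. Fibroblast markers summed to 10050 to 11690 CPM with KU60019 for 15 d and 30110 to 44130 CPM with DMSO for 15 d, and endothelial markers to 11.97 to 16.15 CPM and 40.8 to 116 CPM in the same groups. Macrophage markers summed to 37.4 to 55.8 CPM with KU60019 and 53.8 to 115 CPM with DMSO. By edgeR's test 7 of 9 macrophage and 8 of 10 endothelial markers fell (median log2 fold changes of -2.41 and -2.83), and 4 of 10 fibroblast markers fell and 2 rose. The part of these markers in the mitochondrial result was not tested.

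The rise after 35 d exceeded that after 15 d for 4 mRNAs in the test of the difference itself, where 7.11% of all genes were called higher and 11.7% in either direction. These were mt-Co1 (1.60 ± 0.35), mt-Atp6 (1.14 ± 0.30), mt-Co3 (1.0 ± 0.30) and mt-Co2 (0.85 ± 0.25), all with an edgeR adjusted p under 0.05. On TPM 2 passed, and 2 also passed without S5_715 or S6_716 (KU60019, 15 d), S17_715 (KU60019, 35 d), S2_715 (DMSO, 15 d), or S14_715 or S15_716 (DMSO, 35 d). Between DMSO for 35 d and DMSO for 15 d 0 of the 13 mRNAs passed edgeR's test (0 at an unadjusted p under 0.05, and 0 by DESeq2), where 1.56% of all genes were called. Their log2 fold changes in DMSO ran from -0.65 to 0.14. Between DMSO removed after 15 d and DMSO for 15 d, too, 0 of the 13 mRNAs passed edgeR's test (0 at an unadjusted p under 0.05, and 0 by DESeq2), where 7.02% of all genes were called.

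Set directly against each other, KU60019 for 35 d gave higher levels than KU60019 for 15 d for 5 mRNAs by edgeR's test, where 13.6% of all genes were called higher and 25.3% in either direction. They were mt-Co1 (1.74 ± 0.26), mt-Atp6 (1.0 ± 0.21), mt-Co3 (0.81 ± 0.21), mt-Co2 (0.75 ± 0.18) and mt-Cytb (0.67 ± 0.20). The 4 complex IV and V mRNAs among them are those for which the difference between the 2 effects passed.

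The rRNAs are the core of the mitochondrial ribosome. mt-Rnr1 (12S) had 458, 582 and 433 CPM with KU60019 for 35 d, against 178, 120 and 131 CPM with DMSO. mt-Rnr2 (16S) had 753, 817 and 597 CPM with KU60019 against 302, 223 and 256 CPM with DMSO. Both rose, by 1.78 ± 0.42 (edgeR adjusted p = 0.00488) and 1.47 ± 0.44 (adjusted p = 0.0229), and the call of mt-Rnr2 was lost with the length trend removed. After 15 d mt-Rnr1 stood at 314, 327 and 330 CPM against 166, 311 and 192 CPM, and mt-Rnr2 at 472, 486 and 498 CPM against 279, 463 and 315 CPM. Neither passed, and S2_715 of DMSO lay close to the KU60019 libraries for both. The log2 ratio of mt-Rnr2 to mt-Rnr1 counts was lower with KU60019 than with DMSO over both durations, by 0.20 on average (stratified exact permutation test, p = 0.015, adjusted 0.045).

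Of the 46845 tRNA counts, 46743 fell on the 8 tRNA genes of the minus strand. Among them mt-Tc (cysteine), mt-Tp (proline) and mt-Tn (asparagine) held 21283, 17054 and 7258 counts. The gene of the threonine tRNA mt-Tt lies on the plus strand directly beside mt-Tp and had 0 counts in every library, which allows up to 0.0035 CPM over all libraries (3 counts). The sequences of these 4 genes are shown in the direction of the tRNA with the anticodon in capitals, as the genes whose counts set the tRNA class and the neighbour with none.
mt-Tc, chrM:5192-5257, minus strand: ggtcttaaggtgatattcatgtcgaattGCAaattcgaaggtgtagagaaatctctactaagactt
mt-Tn, chrM:5089-5159, minus strand: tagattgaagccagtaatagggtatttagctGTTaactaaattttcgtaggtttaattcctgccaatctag
mt-Tp, chrM:15356-15422, minus strand: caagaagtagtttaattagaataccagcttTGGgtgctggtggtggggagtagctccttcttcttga
mt-Tt, chrM:15289-15355, plus strand: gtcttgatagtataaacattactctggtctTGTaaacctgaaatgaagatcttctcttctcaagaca
The 3 abundant genes are 66, 71 and 67 bases long, so their counts may come from longer precursors as well as from the tRNAs themselves, which was not tested. Whether strand was used in counting is not stated, so these counts may also hold RNA of the opposite strand. Values of the tRNA class are thus counts at tRNA genes, and the RNA behind them is not known.

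All 3 tRNA genes rose after 35 d of KU60019. mt-Tc had 24.3, 40.8 and 31.5 CPM against 13.5, 8.48 and 9.29 CPM with DMSO, and mt-Tn 8.81, 15.7 and 11.3 CPM against 3.95, 3.49 and 3.39 CPM. mt-Tp had 47.0, 48.7 and 31.7 CPM against 13.9, 14.1 and 16.6 CPM. No DMSO library reached a KU60019 library for any of the 3, and the log2 fold changes were 1.63 ± 0.39, 1.73 ± 0.35 and 1.51 ± 0.21. After 15 d these 3 genes did not pass edgeR's test. mt-Tp then had 18.3, 16.2 and 20.7 CPM with KU60019 against 20.9, 15.2 and 23.97 CPM with DMSO, and the difference between the 35 d and the 15 d effect passed for mt-Tp (1.64 ± 0.29, adjusted p = 7.32e-04). Of the other tRNA genes that passed the filter, mt-Ts1 and mt-Te were called higher after 15 d and after 35 d and mt-Ty was not, all at levels under 3 CPM in every library.

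**Figure D4:**
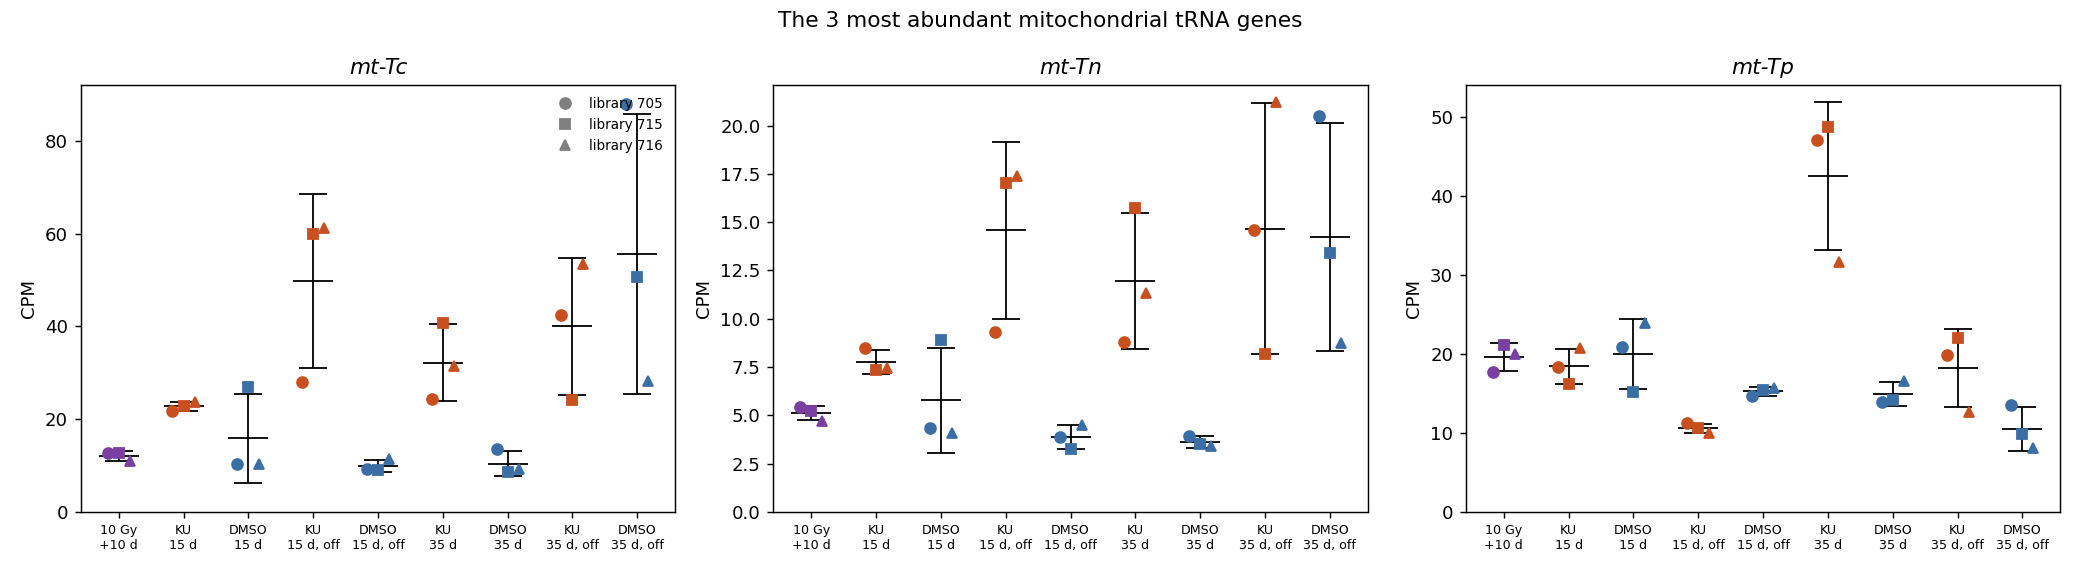
Levels in CPM of the 3 most abundant mitochondrial tRNA genes in each of the 27 libraries (points, shaped by name ending, orange for KU60019, blue for DMSO and violet for irradiation), with the group mean and SD in black. mt-Tp is highest with KU60019 for 35 d (31.7 to 48.7 CPM). The highest group means of mt-Tc follow removal of 35 d DMSO (55.7 CPM) and of 15 d KU60019 (49.7 CPM). Its lowest group mean follows removal of 15 d DMSO (9.87 CPM).

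When KU60019 had been given for 15 d and removed for 20 d, the mitochondrial mRNA share was lower than in cells from which DMSO had been removed. It was 1.39, 1.12 and 1.43% after KU60019, against 1.52, 1.72 and 1.95% after DMSO, without overlap (exact permutation test, p = 0.10). With the copies added the groups overlapped (2.24, 1.82 and 2.35% after KU60019, against 2.15, 2.43 and 2.84% after DMSO). Of the 13 mRNAs 3 rose and 1 fell by edgeR's test, where 24.7% of all genes were called higher, 24% lower and 48.7% in either direction. The number of risers lies near the share of all genes, and that of fallers lies under it. mt-Nd3 rose by 1.55 ± 0.23, mt-Nd1 by 0.50 ± 0.20 and mt-Co2 by 0.45 ± 0.18, and the calls of mt-Nd1 and mt-Co2 were lost in all 6 and in 3 of the 6 fits that left out a library. On TPM 1 rose and 8 fell, and without S11_715 of KU60019 3 fell. The length correlation was -0.29 to -0.13 after KU60019 and 0.38 to 0.41 after DMSO, without overlap. With the length trend removed 1 mRNA rose, mt-Nd3 (1.22), and 2 fell, mt-Co1 (-1.21) and mt-Nd4l (-1.96), while mt-Nd1 (0.36) and mt-Co2 (0.24) did not pass. Schwann cell markers summed to 7.85 to 62.8 CPM after KU60019 and 3.71 to 6.16 CPM after DMSO, and 5 of the 7 tested rose by edgeR's test (median log2 fold change 3.21). The part of these markers in the mitochondrial result was not tested.

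mt-Co1 was the mRNA that fell, with 4205, 2270 and 3379 CPM after KU60019 for 15 d and its removal, against 6382, 7062 and 7940 CPM after DMSO. Its log2 fold change was -1.12 ± 0.25 (edgeR adjusted p = 0.00134), and -0.62 ± 0.20 with the counts of Gm29216 added. The copy took 45.5, 51.2 and 48.7% of the mt-Co1 plus copy counts after KU60019, against 25.4, 26.2 and 28.2% after DMSO. The tRNA genes mt-Tc and mt-Tn went the other way, while mt-Tp fell as well (-0.53 ± 0.21, edgeR adjusted p = 0.0406). With the length trend removed the log2 fold change of mt-Tp was -1.06. mt-Tc had 28.0, 59.9 and 61.2 CPM after KU60019, against 9.20, 9.09 and 11.3 CPM after DMSO (2.33 ± 0.40, adjusted p = 2.35e-04), and mt-Tn rose by 1.91 ± 0.35.

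In the test of the difference, the effect after removal of 15 d KU60019 was lower than that during exposure for mt-Co1 (-1.49 ± 0.35) and mt-Cytb (-1.09 ± 0.28), where 11.4% of all genes were called lower and 25.4% in either direction. It was higher for mt-Tc (1.80 ± 0.55) and mt-Tn (1.47 ± 0.48). All 4 had an edgeR adjusted p under 0.05. Set directly against KU60019 kept on for 15 d, 5 mRNAs were lower after its removal, where 19% of all genes were called lower and 40.3% in either direction. They were mt-Nd5 (-1.47 ± 0.51), mt-Co1 (-1.15 ± 0.25), mt-Cytb (-1.07 ± 0.20), mt-Nd2 (-0.90 ± 0.27) and mt-Atp6 (-0.74 ± 0.21).

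After removal of 35 d KU60019 the mRNA share was 3.20, 2.85 and 3.03%, against 3.61, 1.94 and 1.77% after removal of DMSO. The groups overlapped because of S19_705 of DMSO, the library with 1.11% rRNA-like counts (exact permutation test, p = 0.40), and the log2 ratio was 0.38 with it and 0.71 without it. Over both removal pairs the mean ratio was 0.996-fold (stratified exact permutation test, p = 0.97). By edgeR's test 1 mRNA rose and 7 fell, where 24.4% of all genes were called higher, 24.5% lower and 48.9% in either direction. Without S19_705, 2 rose and 3 fell, without S23_715 of KU60019 4 fell, and on TPM 1 rose and 2 fell. With the length trend removed 1 rose and 5 fell, and mt-Atp8 and mt-Nd3 lost their call. The fallers were led by mt-Nd4l (-3.99 ± 0.72), with 10.1, 12.1 and 11.03 CPM after KU60019 against 445, 64.9 and 17.8 CPM after DMSO, and also held mt-Atp8 (-1.74 ± 0.61), mt-Nd4 (-1.55 ± 0.43), mt-Nd1 (-0.90 ± 0.20), mt-Cytb (-0.83 ± 0.20), mt-Nd3 (-0.64 ± 0.23) and mt-Atp6 (-0.63 ± 0.21). Without S19_705 the log2 fold change of mt-Nd4l was -1.90 and that of mt-Nd1 and mt-Cytb -0.46 and -0.44, all 3 still past the threshold. It was then -0.34 for mt-Atp8, -0.03 for mt-Nd4, -0.40 for mt-Nd3 and -0.16 for mt-Atp6, none of which passed. mt-Tp was the one tRNA gene called, and it rose (0.80 ± 0.21).

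Schwann cell markers summed to 10.2 to 43.2 CPM after removal of 35 d KU60019 and 10.9 to 14.2 CPM after removal of DMSO, with overlap, and 6 of the 7 tested rose by edgeR's test (median log2 fold change 6.53). Macrophage markers summed to 75.6 to 97.3 CPM after KU60019 and 16.3 to 31.1 CPM after DMSO. The part of these markers in the mitochondrial result was not tested.

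mt-Co1 was the mRNA that rose, with 12156, 11292 and 7621 CPM after removal of 35 d KU60019, against 1640, 2376 and 3516 CPM after removal of DMSO. Its log2 fold change was 2.04 ± 0.26 (edgeR adjusted p = 1.13e-06), and 1.99 ± 0.21 with the copy added. The DMSO groups differed as well. Against DMSO kept on for 35 d, mt-Co1 fell after DMSO removal by 1.31 on the log2 scale (SE 0.25), while 10 other mRNAs rose (with the copy added it fell by 0.84, SE 0.20). Of all genes 31.5% were called higher, 32.6% lower and 64.1% in either direction between these DMSO groups. mt-Nd5 (3.27 ± 0.55), mt-Nd4l (3.08 ± 0.68) and mt-Nd6 (2.90 ± 0.44) had the highest log2 fold changes there. On TPM, where the median of all genes stood at -0.67, 3 mRNAs rose and 1 fell between the same groups.

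S19_705, of DMSO removed after 35 d, stood apart in many of these genes. mt-Nd4l had 445, 64.9 and 17.8 CPM in S19_705, S20_715 and S21_716. mt-Nd6 had 6751, 2416 and 1137 CPM in them, against 495, 402 and 485 CPM with DMSO for 35 d. Within the group the values were thus spread over more than the difference between many other groups, with S21_716 nearest to DMSO kept on. Without S19_705, the rises of mt-Cytb, mt-Nd2 and mt-Nd4l against DMSO for 35 d lost their call, with mt-Nd4l at 0.99. mt-Nd5 and mt-Nd6 then stood at 1.96 and 1.94 and kept theirs.

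In the test of the difference between the KU60019 effect after removal and that during 35 d of exposure, 12 of the 13 mRNAs were lower, where 16.6% of all genes were called lower and 32.4% in either direction. The median was -2.33, against 0.02 over all genes tested. mt-Atp6 stood at -2.48 ± 0.30 (edgeR adjusted p = 2.75e-06) and mt-Cytb at -2.33 ± 0.28. mt-Co1 was the exception (0.07 ± 0.35, adjusted p = 0.892). Without S19_705 of DMSO 11 mRNAs were lower, and the difference was -2.02 for mt-Atp6, -1.93 for mt-Cytb and -2.82 in place of -4.91 for mt-Nd4l. Both treatment arms differed between exposure and removal. mt-Atp6 had 1337, 1166 and 1279 CPM after KU60019 removal against 3028, 1427 and 1388 CPM after DMSO removal, beside 3292, 3854 and 2989 CPM during KU60019 against 1005, 887 and 906 CPM during DMSO. Set directly against KU60019 kept on for 35 d, 8 mRNAs were lower after its removal, where 6.82% of all genes were called lower and 12.6% in either direction. mt-Cytb (-1.62 ± 0.20), mt-Atp6 (-1.42 ± 0.22) and mt-Co2 (-1.29 ± 0.18) were among them, and mt-Co1 fell as well (-1.23 ± 0.25).

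Irradiated cells had a mitochondrial mRNA share of 2.31, 2.50 and 2.36%, against 1.75, 1.68 and 1.88% with DMSO for 15 d, without overlap (1.35-fold, exact permutation test, p = 0.10). By edgeR's test 2 mRNAs rose, where 14.1% of all genes were called higher and 30.9% in either direction, and the median log2 fold change was 0.15. The number of mRNAs that rose lies near the share of all genes called higher. mt-Nd6 had 1560, 1540 and 1296 CPM after irradiation, against 503, 856 and 542 CPM with DMSO (1.21 ± 0.41, adjusted p = 0.0305). mt-Co1 had 8656, 9392 and 10371 CPM, against 6476, 4269 and 6227 CPM (0.74 ± 0.25, adjusted p = 0.0278), and 0.99 ± 0.20 with the copy added. The call of mt-Co1 was lost without irradiated S26_715 or S27_716 or without S2_715 of DMSO, and that of mt-Nd6 without irradiated S25_705 or S26_715 or without S1_705 or S3_716 of DMSO. mt-Rnr1 had 236, 274 and 863 CPM and mt-Rnr2 345, 430 and 1535 CPM after irradiation, where the third library is the one with 0.713% rRNA-like counts. Without the 3 libraries high in such counts, 4 mRNAs rose and 1 fell after irradiation. Neither rRNA passed the test against DMSO (166, 311 and 192 CPM, and 279, 463 and 315 CPM).

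Against DMSO for 35 d, whose mRNA share was 1.56, 1.69 and 1.61%, the irradiated libraries were likewise all higher. By edgeR's test 2 mRNAs rose, mt-Nd6 (1.67 ± 0.42, adjusted p = 0.00565) and mt-Nd5 (1.42 ± 0.51, adjusted p = 0.0441), while mt-Co1 did not pass (0.61 ± 0.25, adjusted p = 0.0748). Both rRNAs passed, mt-Rnr1 at 1.67 ± 0.42 and mt-Rnr2 at 1.57 ± 0.44. These values draw on S27_716, the irradiated library with 0.713% rRNA-like counts. Mitochondrial rRNA took 0.0597, 0.0746 and 0.247% of counts after irradiation, against 0.0482, 0.0360 and 0.0399% with DMSO for 35 d. A fit of this comparison without S27_716 was not made. Endothelial markers summed to 16.1 to 20.7 CPM after irradiation and 40.8 to 116 CPM with DMSO for 15 d, and 9 of 10 fell (median log2 fold change -2.45). Fibroblast markers summed to 14240 to 20340 CPM after irradiation and 30110 to 44130 CPM with DMSO for 15 d, and 5 of 10 fell and 1 rose (median -0.70). The part of these markers in the mitochondrial result was not tested.

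The make-up of the mRNA pool differed between groups by more than its total did in some cases. mt-Co1 made up 44.0% of mitochondrial mRNA counts with KU60019 for 35 d and 39.4% with DMSO (group means), with overlapping libraries. mt-Nd1 made up 4.07 and 7.43%, mt-Nd2 2.59 and 3.86%, mt-Cytb 8.07 and 9.95% and mt-Nd6 5.04 and 2.93% of the pool in the same 2 groups. For these 4 and mt-Nd3 the libraries did not overlap (exact permutation tests, p = 0.10 each, 0.220 adjusted over 143 tests of members and group pairs). The log2 ratio of mt-Nd6 to the other 12 mRNAs was higher with KU60019 by 0.63 over both durations, which missed the threshold after adjustment (stratified exact permutation test, p = 0.025, adjusted 0.0545). That of tRNA to mRNA was lower by 0.27 (p = 0.01 by the same exact test, adjusted 0.040).

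After removal the pool shifted further. mt-Co1 made up 38.4, 43.5 and 27.1% of the pool after removal of 35 d KU60019, against 3.15, 11.3 and 19.2% after removal of DMSO. After removal of 15 d treatments it was 27.8, 17.7 and 21.99% with KU60019, against 40.4, 41.1 and 40.9% with DMSO. mt-Nd5 made up 15.2, 8.63 and 21.95% after 35 d KU60019 and its removal, against 27.8, 17.7 and 8.78% after removal of DMSO. mt-Nd6, encoded opposite the end of mt-Nd5, was 10.4, 6.26 and 14.3% against 12.95, 11.4 and 6.20%, so both genes were high in the same libraries. Over both removal pairs the log2 ratio of mt-Nd6 to mt-Nd5 was higher after KU60019 by 0.76, short of the threshold after adjustment (stratified exact permutation test, p = 0.02, adjusted 0.0533).

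**Figure D5:**
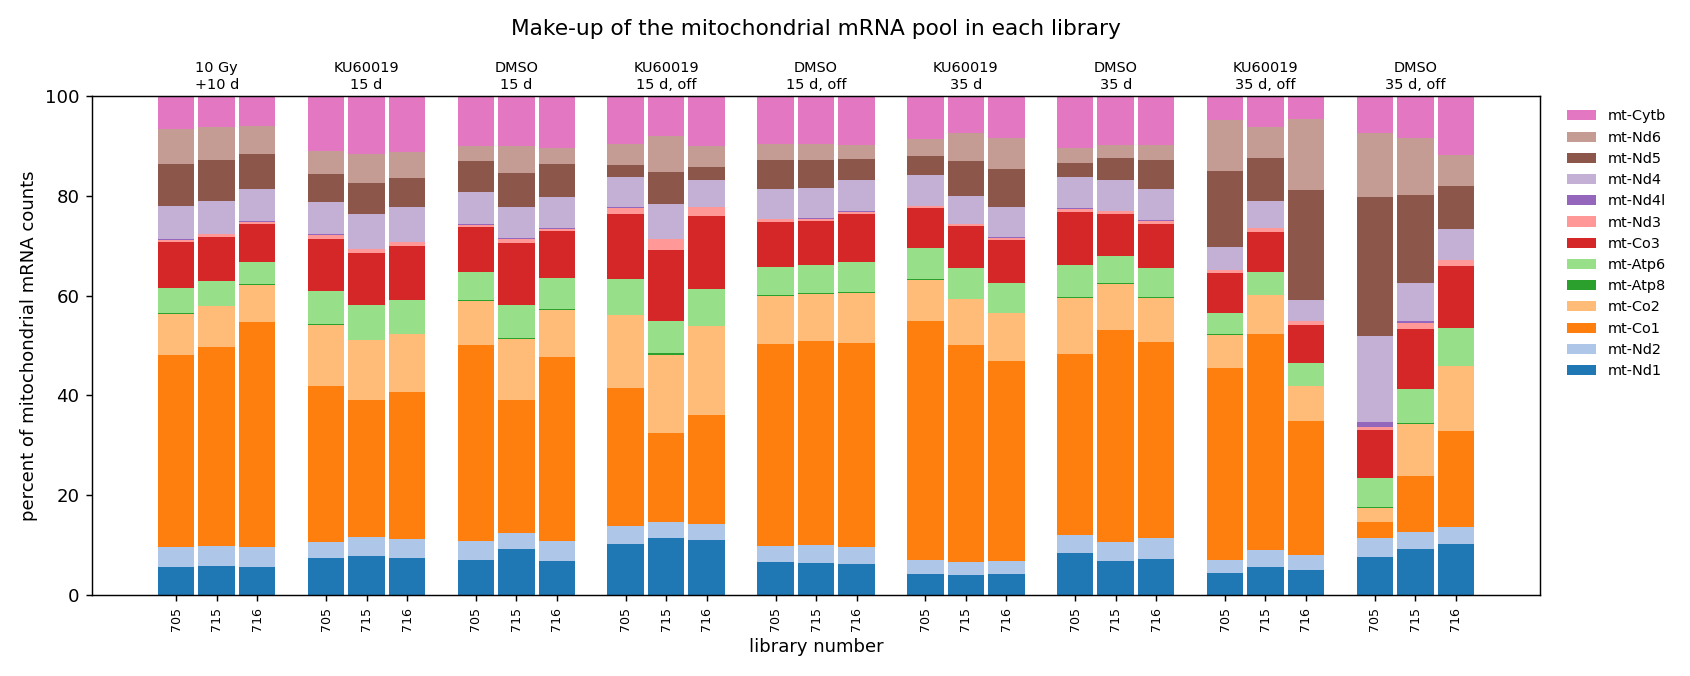
Each mitochondrial mRNA as a percent of the mitochondrial mRNA counts of a library, stacked in gene order along the genome, for 27 libraries in 9 groups; "off" marks removal for 20 d. mt-Co1 (orange) runs from 48.1% in S16_705 of KU60019 for 35 d to 3.15% in S19_705 of DMSO removed after 35 d.

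Nuclear genes of mitochondrial function were examined as lists chosen with results of these data known. After 35 d of KU60019, 0 of 36 nuclear complex I subunits passed edgeR's test, 9 had an unadjusted p under 0.05 and 5 rose by DESeq2. Their median log2 fold change was 0.32 against -0.01 over all genes, and Ndufb4 (0.49 ± 0.17, adjusted p = 0.0552) and Ndufa7 (0.47 ± 0.17, adjusted p = 0.0616) were nearest. Of all genes 9.7% were called higher. The share was smaller in the 4 lists of subunits, ribosomal proteins, and DNA and RNA upkeep. It was larger for regulators of mitochondrial biogenesis (2 of 13 rose and 2 fell). The same held for mitophagy genes (2 of 12 rose) and mitochondrial chaperone and protease genes (2 of 12 rose). With the length trend removed 2, 1 and 1 of these rose and 1 mitophagy gene fell, where 8.2% of all genes were called higher. Of 33 nuclear subunits of complexes III, IV and V 3 rose, such as the complex IV genes Cox7a2 (0.60 ± 0.16) and Cox6a1 (0.69 ± 0.20). Of 56 mitochondrial ribosomal protein genes 4 rose, among them Mrpl19 (0.34 ± 0.10) and Mrpl13 (0.68 ± 0.21). Of 36 genes of mitochondrial DNA replication, transcription and RNA processing 2 rose and 1 fell. The risers were the matrix protease gene Lonp1 (0.42 ± 0.09) and Slirp (0.76 ± 0.19), whose product stabilises mitochondrial mRNAs.

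After 15 d of KU60019, where 13.2% of all genes were called higher, 1 of 36 complex I subunits, 6 of 33 subunits of complexes III to V and 16 of 56 ribosomal protein genes rose, and the complex I count lies under that share. The medians were 0.33, 0.36 and 0.34, against -0.02 over all genes. Cyc1 of complex III rose by 0.71 ± 0.16, Mrpl19 by 0.51 ± 0.10 and Lonp1 by 0.64 ± 0.09. Of the 36 genes of mitochondrial RNA and DNA upkeep 7 rose and 3 fell. With the length trend removed 2 complex I subunits, 4 subunits of complexes III to V and 15 ribosomal protein genes rose after 15 d of KU60019. Of all genes 15.6% were then called higher, and the counts of both subunit lists lie under that share. Of the upkeep genes 7 rose and 0 fell in that fit. In DMSO removed after 35 d, set against DMSO for 35 d, 29 of 36 complex I subunits, 30 of 33 of complexes III to V and 46 of 56 ribosomal protein genes rose, where 31.5% of all genes were called higher. The same libraries hold lower length correlations (-0.23 to -0.15, against 0.08 to 0.44 with DMSO for 35 d). With the length trend removed 27, 30 and 44 members of these lists rose, where 34.2% of all genes were called higher, and after 35 d of KU60019 0 complex I subunits, 1 subunit of complexes III to V and 0 ribosomal protein genes rose.

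Markers of another cell type moved with the 35 d result. Of the 7 Schwann cell markers tested 6 rose after 35 d of KU60019, with a median log2 fold change of 5.14, and the summed level of the 8 listed markers was 12.5 to 115 CPM with KU60019, against 3.41 to 5.64 CPM with DMSO. Their part in the mitochondrial result was not tested. Fibroblast markers summed to 15820 to 16070 CPM with KU60019 for 35 d and 35510 to 43770 CPM with DMSO for 35 d. By edgeR's test 5 of the 10 fell and 2 rose (median log2 fold change -0.51). Macrophage markers summed to 61.1 to 87.3 CPM with KU60019 for 35 d and 41.7 to 57.2 CPM with DMSO, and 1 of 9 rose, the lysozyme gene Lyz2 (1.68 ± 0.33). Endothelial markers summed to 9.77 to 12.8 CPM and 6.19 to 7.27 CPM, and 3 of 10 rose, Vwf (1.28 ± 0.32), Tek (1.81 ± 0.45) and Egfl7 (1.03 ± 0.28). Epithelial markers summed to 0.608 to 0.797 CPM and 0.225 to 0.428 CPM, and neither of the pair tested passed. The part of these markers, too, was not tested.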

How the data were processed

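The authors deposited raw counts per gene (featureCounts and mm10, per the submitters' processing notes) and TPM for the 27 libraries, prepared with a TruSeq RNA kit per the labels' protocols. Aligner, strand setting and versions: not given in the sources used here. Of the 48440 gene IDs 48058 matched GENCODE M21 on GRCm38, which supplied symbols and positions. Nuclear copies were found with blastn 2.17.0.

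Counts were fitted with edgeR 4.0.16 (R 4.3.3; filterByExpr with a minimum count of 10, TMM scaling, 1 mean per group, quasi-likelihood test), which left 18684 genes, and called at a Benjamini-Hochberg adjusted p under 0.05. SE is the log2 fold change divided by the root of F. Alternatives were DESeq2 1.42.0, limma 3.58.1 on log2(TPM + 1), with genes kept that reached 1 TPM in 3 libraries, and other scalings, filters and libraries. The fit was tested on simulated data. Shares and ratios were compared by exact two-sided permutation tests on log2 values.

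The members and the 14 gene lists were chosen with earlier results of these data known. Values per library are given for the 3 mRNAs with the lowest and the 2 with the highest adjusted p after 35 d of KU60019, both rRNAs, mt-Nd6 and tRNA genes averaging at least 5 CPM in a group. Of each nuclear list, up to 2 members with the lowest p are named. Libraries with the same name ending deviated together between KU60019 and DMSO for 15 d (correlations of 0.22 to 0.39 over genes), and in no other KU60019 and DMSO pair did all 3 endings do so. All pairs of libraries within a group differed by more than counting noise, and pairs across groups were not examined.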

Additional observations from a re-analysis of the deposited data

Results flagged for a closer look

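The results here are tested differences between KU60019 effects, each set against the DMSO group of its own arm (edgeR's quasi-likelihood test of the difference, adjusted p under 0.05). Values are differences of log2 fold changes.

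The effect of 35 d of KU60019 exceeded that of 15 d for mt-Co1 (1.60), mt-Atp6 (1.14), mt-Co3 (1.00), mt-Co2 (0.85) and the proline tRNA gene mt-Tp (1.64). After removal of 15 d KU60019 the effect was lower than during exposure for mt-Co1 (-1.49) and mt-Cytb (-1.09), and higher for the tRNA genes mt-Tc (1.80) and mt-Tn (1.47).

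After removal of 35 d KU60019 the effect was lower than during exposure for 12 mRNAs. Among those of complex I, the difference was -1.84 for mt-Nd1, -1.60 for mt-Nd2, -2.07 for mt-Nd3, -4.91 for mt-Nd4l, -3.31 for mt-Nd4, -2.90 for mt-Nd5 and -2.80 for mt-Nd6. It was -2.33 for mt-Cytb of complex III, -1.68 for mt-Co2 and -2.16 for mt-Co3 of complex IV, and -2.48 for mt-Atp6 and -2.73 for mt-Atp8 of complex V. The rRNAs stood at -2.07 (mt-Rnr1) and -1.99 (mt-Rnr2), and the tRNA genes at -1.67 (mt-Tn), -2.10 (mt-Tc), -2.57 (mt-Ts1) and -3.55 (mt-Te, which stayed under 1 CPM in every library). These values draw on DMSO removed after 35 d, where S19_705 stood apart. Without it the calls of mt-Atp8 (-1.33), mt-Rnr2 (-1.47) and mt-Ts1 (-2.19) were lost, and the difference was -1.40 for mt-Nd1, -0.85 for mt-Nd2, -1.84 for mt-Nd3, -2.82 for mt-Nd4l, -1.79 for mt-Nd4, -1.59 for mt-Nd5 and -1.85 for mt-Nd6.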

How the results depend on the processing

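The 11 mRNAs that rose after 35 d of KU60019 numbered 11 in every fit that left out a library. Leaving out a library gave 3 to 7 risers after 15 d, 1 to 2 risers and 1 to 3 fallers after 15 d and removal, 1 to 2 risers and 3 to 9 fallers after 35 d and removal, and 0 to 1 risers and 0 to 1 fallers after irradiation. The difference between the 35 d and 15 d effects gave 2 to 4 risers, that between removal and exposure 0 to 1 risers and 2 fallers (15 d) and 11 to 12 fallers (35 d), and DMSO removed after 35 d against DMSO for 35 d 8 to 11 risers. KU60019 for 35 d against 15 d gave 4 to 6 risers, and removal against exposure 3 to 5 (15 d) and 5 to 7 (35 d) fallers. The log2 ratio of the mRNA share ran from 0.52 to 0.61 (KU60019, 15 d), 1.67 to 1.86 (35 d), -0.49 to -0.29 (15 d and removal), 0.19 to 0.71 (35 d and removal), 0.40 to 0.48 (irradiation), -0.16 to -0.08 (DMSO, 35 against 15 d), -0.13 to 0.05 (DMSO, 15 d and removal) and 0.19 to 0.71 (DMSO, 35 d and removal). With the length trend removed the counts were 3 risers after 15 d, and 1 riser and 2 fallers after 15 d and removal. For KU60019 15 d and removal there was 1 riser with no filter and on TPM, and the fallers numbered 3 with library size alone, 2 in a fit of the compared groups alone, 2 by DESeq2, 8 on TPM and 5 without the 3 libraries high in rRNA-like counts. For 35 d and removal the risers numbered 2 without those 3 libraries, and the fallers 4 with library size alone, 1 in the compared groups, 2 on TPM and 3 without the 3 libraries. For irradiation the risers numbered 1 with library size alone, with no filter and on TPM, 5 in the compared groups and 4 without the 3 libraries, with 1 faller in each of these last fits. The 35 d minus 15 d difference gave 9 risers in the compared groups and without the 3 libraries, and 2 on TPM. The removal minus exposure difference (15 d) gave 4 fallers with library size alone, 6 in the compared groups, and 5 on TPM and without the 3 libraries. DMSO removed after 35 d had 3 risers on TPM. KU60019 for 35 d against 15 d gave 12 risers in the compared groups and 9 without the 3 libraries, and removal against 15 d exposure 10 fallers with library size alone, 8 in the compared groups, 11 on TPM and 9 without the 3 libraries. Directions turned on TPM for mt-Nd1 (-0.066) and mt-Co2 (-0.12) after 15 d and removal, and for mt-Nd2 (-0.18) and mt-Cytb (-0.21) in DMSO removed after 35 d. After 35 d and removal, mt-Nd2 ran from -0.64 to 0.38 when a library was left out, turning without S19_705 of DMSO, and stood at a positive value without the 3 libraries (0.42), and mt-Nd4 without the 3 libraries (0.012). By summed TPM the mRNA share had log2 ratios of 0.41 (15 d), 1.42 (35 d) and 0.23 (irradiation). The cause of these shifts was not tested. With replicate number as a block the mRNAs that rose numbered 6 after 15 d and 11 after 35 d, and the block changed no call of a single member in the comparisons of KU60019 or irradiation with DMSO. Of 94 called values of single members, 52 kept their call under every alternative and 42 lost it under at least 1. Alternatives with the 3 libraries left out or copies added, and the counts of nuclear lists with the length trend removed, were chosen after seeing the data. At this depth 16 of the 22 tRNA genes stayed under 10 counts in every library and were not tested.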

Other observations

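After 15 d of KU60019 and its removal, 31 of 36 complex I subunits rose against removed DMSO by edgeR's test (median log2 fold change 0.98, against -0.01 over all genes), as did 27 of 33 subunits of complexes III to V and 43 of 56 mitochondrial ribosomal protein genes, where 24.7% of all genes were called higher. In the same comparison 3 of the 13 mitochondrial mRNAs rose, a count near that share, and 1 fell. After 35 d of KU60019 and its removal, 4 complex I subunits rose and 10 fell, 15 subunits of complexes III to V fell, and 5 ribosomal protein genes rose and 16 fell, where 24.4% of all genes were called higher and 24.5% lower. The complex I and ribosomal counts of fallers lie near the share called lower, and their counts of risers lie under the share called higher. The difference between the durations was not tested. The length correlation was -0.29 to -0.13 after removal of 15 d KU60019 and 0.38 to 0.41 after removal of DMSO, and with the length trend removed 31, 27 and 41 members of the 3 lists rose, where 27% of all genes were called higher. For 35 d and removal, 13, 18 and 24 members then fell, where 29.1% of all genes were called lower.

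Nuclear copies of mitochondrial genes were also found outside chromosome 1. Gm13340 on chromosome 2, 97.6% identical to mt-Co1, held 311968 counts over all libraries, against 7687572 for mt-Co1. This is more than the counts of 3 of the 7 chromosome 1 copies, Gm28439 (307337), Gm28438 (141892) and Gm10222 (50243).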
